A study of Homo sapiens with 3 samples.

Results

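The genes described are 7 IGF binding proteins (IGFBP1 to IGFBP7), the ligand IGF2, the receptor IGF1R and IGFALS, the acid-labile subunit that joins IGFs and binding proteins in serum. They were chosen by name, as every non-control probe whose gene name in the deposited array files was exactly one of these symbols. This gave 10 genes of the 27274 gene names on the array, measured by 11 probes, of which 9 genes had 1 probe and IGF2 had 2. The RNA came from HepG2 cells, an established human hepatocellular carcinoma line grown in RPMI medium with fetal bovine serum, and each of the 3 conditions had 1 array. Control cells received no etoposide (0 μM), and the other cells received 10 μM etoposide (the low dose) or 100 μM etoposide (the high dose), all for 30 h. The array labels call the control untreated, whereas the study heads its comparisons with DMSO, the solvent. Etoposide is a topoisomerase II poison that leaves breaks in DNA, and the low dose was used to bring about senescence and the high dose apoptosis in the same line.

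Insulin-like growth factors are small secreted hormones that act through IGF1R, a receptor tyrosine kinase, while IGF2R takes up IGF2 and leads it to degradation. The binding proteins hold IGFs in the extracellular fluid, lengthen their life there and mostly keep them from the receptor, and several of them also act on cells without IGF. Liver is a main source of the circulating members of this system, and HepG2 cells have long been used to study IGFBP1 secretion.

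Each array was read as the processed signal of its spots, a brightness in scanner units after background subtraction. A signal was called well above background where the scanner software marked most spots of the probe so. The lowest such signal was 19.5 on the control array and 22.7 and 21.6 on those of low-dose and high-dose cells. Fold changes were taken after each array was set relative to its 75th percentile, which lay at a signal of 514, 536 and 432 in that order, so a fold over control is the ratio of the printed signals times 0.958 at the low dose and times 1.19 at the high dose. With 1 array per condition there was no test, and array and condition cannot be told apart. The error given is the spot SD, the spread of a log2 ratio that spots of such brightness show within an array, and it leaves out the spread between cultures. Signals of different genes were not ranked against each other, and those of cell type markers were only summed within an array.

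Hepatocyte genes were present throughout. All 9 hepatocyte markers (ALB, AFP, TF, TTR, APOA1, APOB, SERPINA1, FGB and HNF4A) were well above background on every array, with a summed signal between 235058 and 256599. Single markers moved in both directions within this sum. The 3 fibroblast markers COL1A1, COL3A1 and DCN were not well above background on any array, with summed signals of 13 to 27. Of the endothelial markers, PECAM1 and CDH5 were well above background on all arrays and VWF at the high dose only, and the 3 summed to 530, 363 and 354 in order of dose. The leukocyte markers CD3E and PTPRC, the latter through 1 of its 5 probes, were also well above background on all arrays and summed to 304, 166 and 341. The part of these markers in the results was not tested. Fewer cells of a kind and less RNA per cell cannot be told apart in such bulk RNA. The treatment showed in CDKN1A, the p53 target that encodes p21, with signals of 170, 1407 and 1010 (7.94-fold and 7.07-fold over control), and in MDM2, the p53 inhibitor that p53 induces, with 616, 4522 and 1652 for its brightest probe (7.03-fold and 3.19-fold).

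The probes on which the results turn are shown by the last 30 of their 60 bases, written 5′ to 3′, since 1 probe stands for nearly every gene here and a reader can place each signal on the transcript by its sequence. Positions are those of the array files, on hg18. Capitals mark ATTAAA, a variant polyadenylation signal.
IGFBP1 (chr7:45899491-45899550, + strand): ttttaaagagcatggaaaaatactgcctag
IGFBP2 (chr2:217237331-217237390, + strand): cccctgtgtcccttttgcataagATTAAAg
IGFBP3 (chr7:45919133-45919192, - strand): tggcacaattcttcggatgactgcagaaaa
IGFBP7 (chr4:57592180-57592239, - strand): aaaagtagtcatggataactacattacctg
IGF1R (chr15:97324889-97324948, + strand): tgcaccgcaaataatgcattttctgagttt
IGF2, the downstream probe (chr11:2106970-2107029, - strand): ccggcaaaatcccatgcttgggttttgtct
The other IGF2 probe is shown whole, because its 60 bases cover 353 bases of the genome and so cross a splice junction.
IGF2, the junction probe (chr11:2110978-2111330, - strand): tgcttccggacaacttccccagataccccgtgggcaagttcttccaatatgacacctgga
Among the 11 probes of these genes, the IGFBP2 probe alone held AATAAA or ATTAAA, searched on the strand of the probe, compared with 10.9% of all 34127 probes.

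Of the 10 genes, 7 were well above background on all arrays, IGFALS on the arrays of treated cells only, and IGFBP3 and IGFBP5 on none, so 8 could be given a fold change or a bound. At the low dose, IGFBP1, IGFBP2 and IGFBP7 rose past 2-fold, and none of the 8 fell past 2-fold. Over all 16718 genes well above background on at least 1 of these arrays, 3.37% rose and 1.6% fell past 2-fold. With 100 μM the same binding proteins and IGFALS rose past 2-fold and again none fell, where the background was 6.76% rising and 3.66% falling among 16981 genes. Between the doses, IGFBP2 was past 2-fold higher at the low dose and IGFALS past 2-fold lower, against 3.63% and 3.95% of 16791 genes. The median log2 fold change of the 8 genes was 0.77 for 10 μM, 0.95 for 100 μM and 0.07 for the low over the high dose. Over all genes with a fold these medians were -0.04, 0.10 and -0.11. The 8 include IGFALS, which entered through the treated arrays alone, and the 3 comparisons share arrays, so these figures describe the list and do not set it apart. The plot of signals by dose gives all 10 genes.

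**Figure D1:**
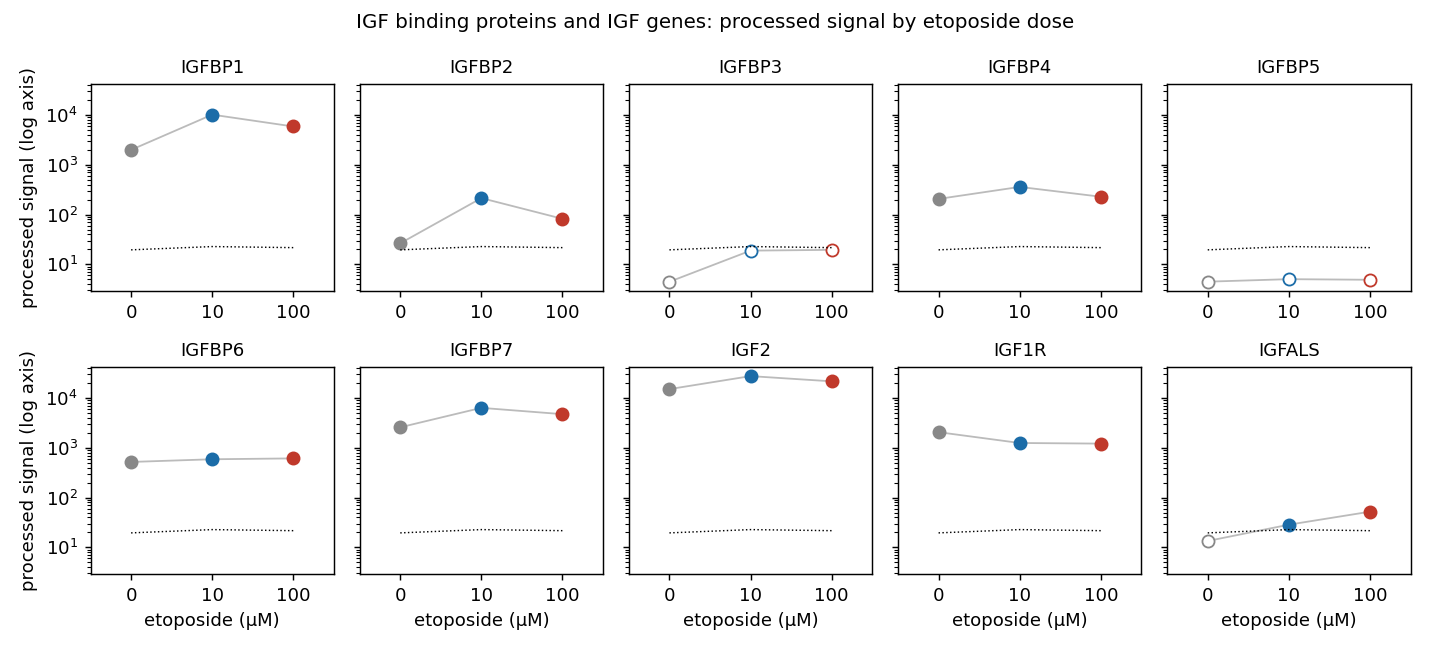
Processed signal of the brightest probe of each gene (log axis, scanner units) at 0, 10 and 100 μM etoposide, 1 array per dose. Filled points are well above background, open points are not, and the dotted line is the lowest signal well above background on each array. IGFBP1, IGFBP2, IGFBP4, IGFBP7 and IGF2 have their highest printed signal at 10 μM, IGF1R is highest in control cells, and IGFALS is highest at 100 μM. Printed signals are not scaled between arrays. After scaling, the low over the high dose is log2 0.11 for IGFBP7 and 0.04 for IGF2.

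IGFBP2, a binding protein abundant in fetal liver and in blood, had the largest measured fold of the family, although at the high dose it did not exceed that of IGFBP1 beyond the spot error, and with normexp correction IGFBP1 had the larger fold at both doses. Its probe (NM_000597) was printed at 10 spots on every array, and their mean signals were 26.4 (control cells), 214 (low dose) and 82.0 (high dose). Control spots ranged from 15.1 to 37.9, those of low-dose cells from 204 to 224 and those of high-dose cells from 78.0 to 91.6. Thus the spots of the 3 arrays did not overlap, and the control spots, 9 of 10 of them well above background, lay close to the detection limit. Spots of 1 array are not replicates of a condition, and how many other repeated probes separate in this way was not counted. Low-dose cells stood 7.77-fold above control cells, a log2 fold change of 2.96 with an SE of 0.12 over 10 spots per array. High-dose cells stood 3.70-fold above (log2 1.89, SE 0.13), and the low dose 2.10-fold above the high dose (log2 1.07, SE 0.03). Among 15449 genes measured on both arrays, 20 had a larger rise with 10 μM, and 96 of 15466 did with 100 μM. The study had picked IGFBP2 from these same arrays, for its rise over control and its lead at the low over the high dose. These folds and ranks are thus no independent support for that choice. Normexp correction starts from the spot brightness before background subtraction, corrects for background in another way and adds an offset of 50. It gave smaller log2 values for IGFBP2 of 1.56, 0.97 and 0.60 in the 3 comparisons, where IGFBP1 had 2.19, 1.71 and 0.48. Which of these steps made the values smaller was not tested. The lead of the low over the high dose lay at the 2-fold line (log2 1.0) with all spots counted in the percentile, and at 1.38 without scaling.

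**Figure D2:**
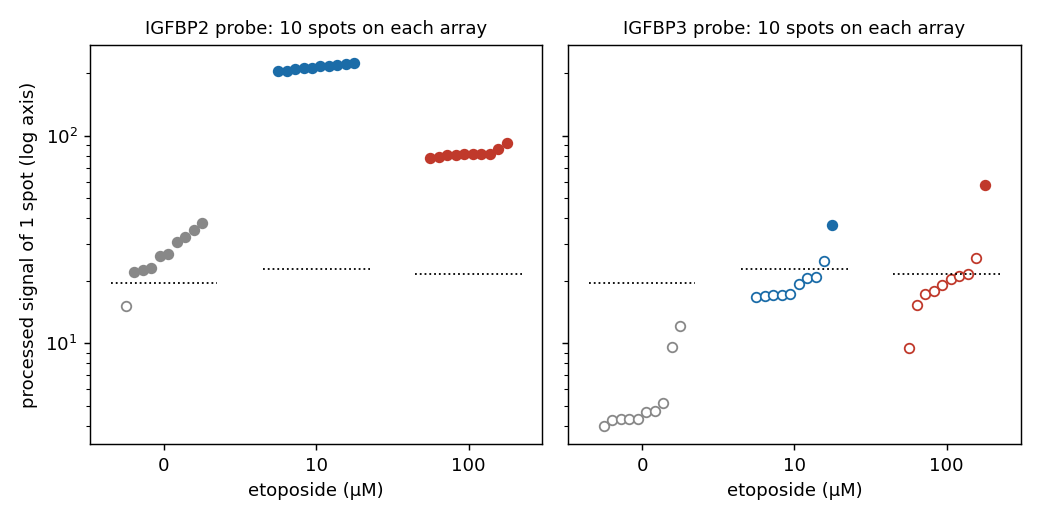
Processed signal of each of the 10 spots of the IGFBP2 and IGFBP3 probes (log axis, scanner units) at 0, 10 and 100 μM etoposide, ordered by signal within an array. Filled spots are well above background, open spots are not, and the dotted line is the lowest signal well above background of any probe on that array. IGFBP2 spots of the 3 arrays do not overlap, which covers the spread within single arrays only. Nearly all IGFBP3 spots are open, with the control spots below nearly all those of treated cells.

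IGFBP1, which hepatocytes secrete and which insulin represses, gave signals of 1994 (control cells), 10188 (low dose) and 5884 (high dose) from 1 spot per array (NM_000596). It was thus far above background everywhere, with the low dose the highest. It rose 4.90-fold at 10 μM (log2 2.29) and 3.51-fold at 100 μM (log2 1.81), each with a spot SD of 0.07. A larger rise was seen in 49 of 15449 genes for the low dose and in 113 of 15466 for the high dose. The low dose stood 1.40-fold above the high dose (log2 0.48, spot SD 0.07), which is under 2-fold, and this lead ranged from 0.41 to 0.79 over 7 ways of scaling the arrays.

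IGFBP7, a secreted glycoprotein that binds IGFs with lower affinity than the classical binding proteins, gave signals of 2586, 6360 and 4749 by rising dose (NM_001553). Both treated arrays stood above the control array and close to each other. The rise was 2.36-fold with 10 μM (log2 1.24, spot SD 0.06) and 2.18-fold with 100 μM (log2 1.13, spot SD 0.06), and the low over the high dose was 1.08-fold (log2 0.11). With median, no or spike-in scaling the value at 100 μM was 0.84 to 0.96, under the 2-fold line. The median log2 fold change of all measured genes at the high dose ran from -0.20 with median scaling to 0.15 with the percentile over all spots, and relative to that median IGFBP7 stood 1.04 to 1.13 higher under the 7 scalings.

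The other classical binding proteins changed less or were not measurable. IGFBP4, an inhibitor of IGF action that is cut by the protease PAPPA, gave 206, 359 and 228 (NM_001552), with log2 fold changes of 0.74 (spot SD 0.09) and 0.39 (0.10) over control. IGFBP6, which prefers IGF2 to IGF1, gave 520, 589 and 613 (NM_002178), or 0.12 (0.07) and 0.49 (0.08). Neither passed 2-fold. Their order between doses was opposite, with IGFBP4 1.27-fold higher and IGFBP6 0.775 times as high at the low dose as at the high dose. Over the 7 scalings the log2 difference ran from 0.27 to 0.66 for IGFBP4 and from -0.44 to -0.06 for IGFBP6. The signs were thus kept, but the weakest IGFBP6 value lay within its spot SD of 0.07. Relative to the median of all genes IGFBP6 stayed between -0.34 and -0.27. IGFBP5, a binding protein found in extracellular matrix, gave 4.47, 5.02 and 4.88 (NM_000599) and was not well above background on any array, so its mRNA was not detectable with this probe.

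IGFBP3, the main IGF carrier in blood and a known p53 target, was also not well above background on any array by the call of its 10 spots (NM_001013398), so it has no fold. Its control spots had processed signals of 3.99 to 12.1, the spots of low-dose cells 16.7 to 37.2 and those of high-dose cells 9.51 to 57.5, and the software marked 0, 1 and 1 of 10 spots as well above background. Apart from the lowest spot at the high dose, every spot of treated cells was brighter than every control spot. A closer look at the raw spot brightness, before background subtraction, was added after these values were seen. The raw median was 55.2, 81.8 and 88.7 in the same order. The 153 negative control spots of each array had raw medians of 47.8, 57.0 and 62.1 and 95th percentiles of 58.9, 69.7 and 74.8. Thus 2 of 10 IGFBP3 spots lay above the 95th percentile of the negative controls in control cells, and 10 of 10 did so at either dose. For IGFBP2 all 10 spots did so on each array. Each count is of spots of 1 probe on 1 array per condition. How many other dim probes did so was not counted. With no filter on dim probes, the median log2 fold change of all genes was 0.07 at 10 μM and 0.35 at 100 μM. For genes well above background on both arrays it was -0.03 and 0.09.

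Several of these genes are neighbors on their chromosomes. The probes of IGFBP1 and IGFBP3 lie on opposite strands 19582 bases apart on chromosome 7, and those of IGFBP2 and IGFBP5 lie on opposite strands 8021 bases apart on chromosome 2. Since IGFBP3 and IGFBP5 have no fold, the changes of these neighbors were not compared.

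IGF2, the fetal growth factor that liver tumor lines often express, gave signals of 15144, 27650 and 21700 by rising dose with its downstream probe (NM_000612). This probe stood 1.75-fold (log2 0.81, spot SD 0.06) and 1.70-fold (log2 0.77) over control, so both treated arrays stood above the control by less than 2-fold. The junction probe, which lies 3948 bases upstream along the gene, gave 57.1, 82.8 and 80.9, with log2 fold changes of 0.47 (spot SD 0.16) and 0.75 (0.17). The probes thus had the same direction at each dose, and their log2 difference at the low dose, 0.81 against 0.47, was larger than at the high dose. Between the doses the downstream probe was at 0.04 and ranged from -0.04 to 0.35 with the scaling (0.06 to 0.13 relative to the median of all genes), so no order of the doses can be read from it, and the junction probe was at -0.28 (spot SD 0.13). The probe of the readthrough gene INS-IGF2 was not well above background on any array. The antisense gene IGF2AS (now IGF2-AS) gave 127, 128 and 126, with log2 fold changes of -0.05 and 0.24 for its brighter probe, and the imprinted neighbor H19 was not well above background.

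IGF1R, the receptor through which IGF1 and IGF2 act, was the only one of the 8 genes with a lower signal in treated cells. Its signals were 2064, 1251 and 1215 (NM_000875), with the treated arrays close together, at 0.581 times the control with 10 μM (log2 -0.78, spot SD 0.06) and 0.700 times with 100 μM (log2 -0.52, spot SD 0.07). It did not pass 2-fold. Lower values than these were found in 381 of 15449 measured genes for 10 μM and in 1764 of 15466 for 100 μM. The sign against control held under all 7 scalings (-0.81 to -0.72 and -0.80 to -0.45), whereas the comparison of the doses (log2 -0.27) ran from -0.34 to 0.04 and changed sign. Relative to the median of all genes it stayed between -0.24 and -0.17.

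IGFALS, which hepatocytes release to form the complex with IGF and IGFBP3 or IGFBP5 in serum, lay below the detection limit in control cells. Its signals by rising dose were 13.4, 28.5 and 52.0 (NM_004970), the 2 treated arrays being above the limit. Each array was brighter than the one at the next lower dose. Against the lowest signal well above background of the control array, the low dose was at least 1.40-fold and the high dose at least 3.17-fold higher (log2 0.49 and 1.66). The bound at the high dose was 0.86 with normexp, under 2-fold, and 1.32 to 1.73 over the 7 scalings. The low dose was 0.442 times the high dose (log2 -1.18, spot SD 0.29), the reverse of the order in IGFBP2. The difference between the doses shrank to between -0.95 and -0.86 without scaling and with median, quantile or spike-in scaling, and to -0.66 with normexp, under 2-fold each time.

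**Figure D3:**
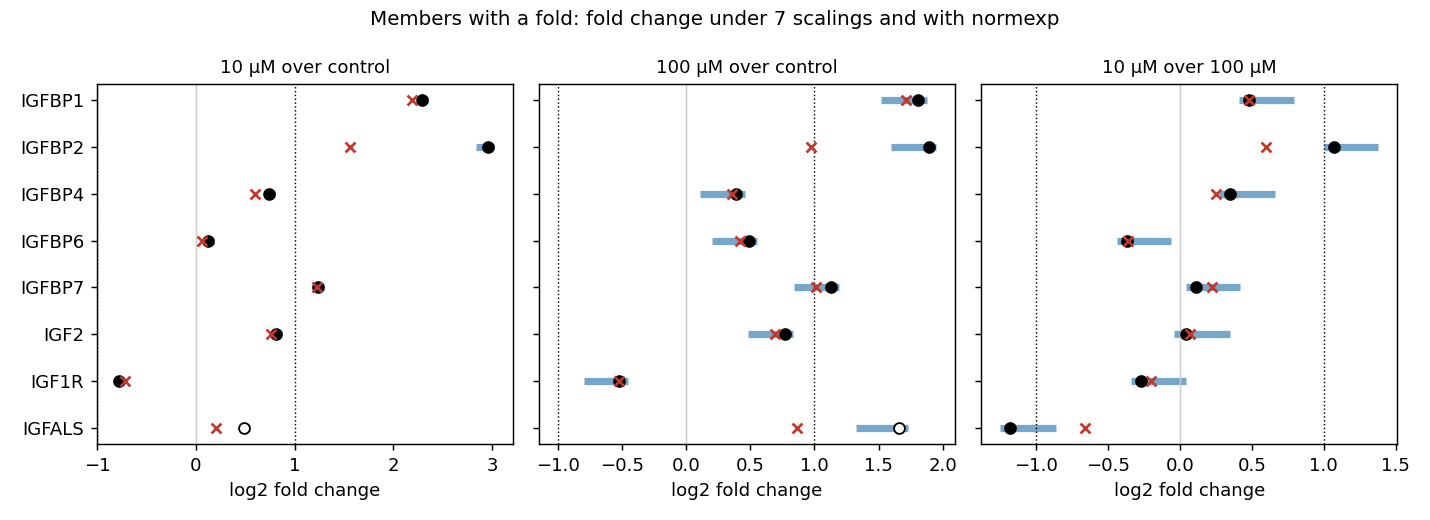
Log2 fold change of the 8 genes with a fold, in 3 panels for 10 μM over control, 100 μM over control and 10 over 100 μM. Black points are the reported values (open for the 2 IGFALS bounds), blue bars the range over 7 scalings, red crosses the value with normexp correction, and dotted lines mark 2-fold. Bars are short at 10 μM over control and long wherever the 100 μM array takes part. The crosses of IGFBP2 and IGFALS, whose control signals are near or below the detection limit, lie farthest from their points.

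A stricter and a looser threshold were set beside the background in the same way. Past 3-fold, IGFBP1 and IGFBP2 rose with 10 μM (background 1.29%), IGFBP1, IGFBP2 and IGFALS with 100 μM (1.86%), and none of the family fell at either dose (0.389% and 1.67%). None passed 3-fold between the doses (1.88% higher and 0.852% lower at the low dose). Past 1.5-fold, IGFBP4 and IGF2 joined the rising genes at the low dose, 5 in all (9.03%), and IGF1R was the 1 falling gene (6.48%). At the high dose IGF2 joined, 5 in all (18.4%), and none fell (9.7%). Between the doses the counts past 1.5-fold were those past 2-fold, 1 higher and 1 lower (7.47% and 14.3%).

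The wider IGF pathway was described by 6 lists with 77 genes, of which IGF2 and IGF1R are already given above. At 10 μM, 61 of them were well above background on that array or the control array, and 60 of these had a fold. Among them 2 rose (HTRA1 and SESN1) and 2 fell (CISH and TRIB3) past 2-fold, beside a background of 3.37% and 1.6% of all genes. At 100 μM these numbers were again 61 and 60, and 2 genes rose (SHC1 and SESN1) and 4 fell (STC2, EIF4EBP1, TRIB3 and DDIT4), beside 6.76% and 3.66%. Between the doses 1 of 60 genes was past 2-fold higher at the low dose (DDIT4) and 2 were lower (CISH and AKT2), beside 3.63% and 3.95%. With so few genes called, these counts do not set the lists apart from the background. The spot SD of the log2 ratios past 2-fold lay between 0.06 and 0.09, and at 0.14 for HTRA1. The median log2 fold change of the lists together was -0.08 with 10 μM and 0.05 with 100 μM, where the latter turned to between -0.21 and -0.12 without scaling and with median or spike-in scaling. The plot of both doses shows where these genes lie relative to the binding proteins.

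**Figure D4:**
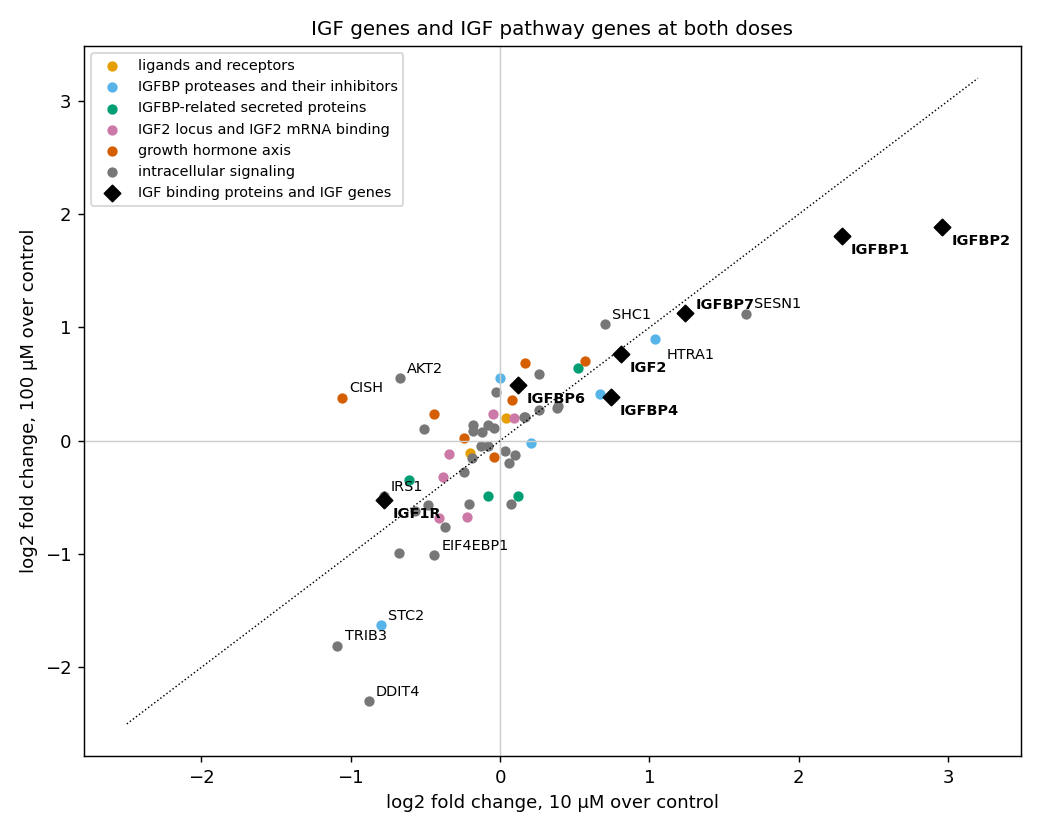
Log2 fold change at 10 μM over control (horizontal) against that at 100 μM over control (vertical) for the brightest probe of each pathway gene measured on all 3 arrays, colored by list, and of the 7 IGF family genes measured on all arrays (black diamonds). The dotted line marks equal change, and both axes share the control array. IGFBP1 and IGFBP2 lie at the far upper right below the line, and TRIB3, STC2 and DDIT4 at the lower left.

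Among ligands and receptors, no gene passed 2-fold at either dose. IGF1, the other main ligand, was not well above background on any array with either of its probes. IGF2R gave 1572, 1685 and 1523 and log2 fold changes of 0.04 and 0.20, and the insulin receptor INSR gave 1755, 1598 and 1364, or -0.20 and -0.11. Neither receptor reached 1.5-fold in either direction. The adaptor IRS1, which carries the signal from both IGF1R and INSR, gave 217, 132 and 130 with its brighter probe, log2 fold changes of -0.78 and -0.49 (spot SD 0.10 each), close to those of IGF1R on both treated arrays. Its sister IRS2 was not well above background.

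Proteases that cut binding proteins, and their inhibitors, included a rising and a falling gene. HTRA1, a secreted serine protease that cleaves several binding proteins, gave 64.6, 139 and 102, a rise of 2.06-fold at the low dose (log2 1.04) that was 0.61 with normexp and also under 2-fold with quantile normalization, and 1.87-fold at the high dose. STC2, which inhibits the IGFBP4 protease PAPPA, gave 458, 275 and 125, log2 fold changes of -0.80 and -1.63, the latter past 2-fold. PAPPA itself lay near the detection limit at 29.2, 48.5 and 32.5. None of the secreted relatives of the binding proteins (among them CTGF and CYR61, now CCN2 and CCN1) passed 2-fold, and 5 of these 9 genes were not well above background on any array. None of the genes of the IGF2 locus and of IGF2 mRNA binding passed 2-fold either, with IGF2BP1, an RNA-binding protein of the IGF2 transcript, at 6793, 5335 and 3566 (log2 -0.41 and -0.68).

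In the growth hormone axis, CISH, a feedback inhibitor of cytokine receptors, gave 2821, 1413 and 3082. It fell at the low dose only (log2 -1.06, 0.480 times the control) and was at 0.38 at the high dose, 0.369 times as high at the low as at the high dose. Without scaling the fall lay at the 2-fold line. The growth hormone receptor GHR was not well above background.

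The list of intracellular signaling was the longest, with 34 of its 38 genes measured. Of these, 1 rose and 1 fell past 2-fold at 10 μM (background 3.37% and 1.6%), and 2 rose and 3 fell at 100 μM (6.76% and 3.66%). DDIT4, an inhibitor of mTORC1 induced by stress, gave 7297, 4136 and 1245, with log2 fold changes of -0.88 and -2.30. TRIB3, a pseudokinase that binds AKT, gave 53540, 26297 and 12855, or -1.09 and -1.81. Both were thus lowest at the high dose. EIF4EBP1, the translation repressor that mTORC1 phosphorylates, followed the same order with 11074, 8496 and 4625 (-0.44 and -1.01, the latter between -1.30 and -0.95 over the settings tried). SESN1, a sestrin that p53 induces and that restrains mTORC1, went the other way with 172, 560 and 313, or 3.13-fold and 2.17-fold over control. After scaling, its low dose stood 1.44-fold above its high dose (log2 0.53, spot SD 0.07). SHC1, an adaptor of receptor tyrosine kinases, gave 4044, 6842 and 6936 (log2 0.70 and 1.03). The rises of SESN1 and SHC1 at the high dose lay under 2-fold with median, no or spike-in scaling and with normexp. AKT2, a kinase downstream of the insulin and IGF receptors, gave 938, 614 and 1152 with its brightest probe, 0.429 times as high at the low as at the high dose. Its other probes gave 0.580 and 0.616. Over control at 10 μM the brightest probe was at log2 -0.67 and the others at -0.11 and 0.32, so they did not share a direction. The difference between the doses was under 2-fold with median, no or spike-in scaling, with normexp and with the median over probes.

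The genes whose fold changes over control lay nearest to those of IGFBP2 and IGFBP1 were found among 12046 other genes with a RefSeq mRNA accession and a signal well above background on all arrays, by the distance in log2 fold change at the 2 doses. Such likeness rests on 3 arrays and says nothing of function. Nearest to IGFBP2 were PRODH, a proline dehydrogenase, with signals of 125, 1098 and 390 (8.42-fold and 3.71-fold, distance 0.12), LOXL4, a lysyl oxidase of the extracellular matrix, with 119, 1078 and 340 (distance 0.20), and EVL, a regulator of actin, with 25.1, 226 and 86.7 (distance 0.22). Like IGFBP2, all of these are among the genes that the study picked from these arrays by their folds. Nearest to IGFBP1 were APOBEC3C, a cytidine deaminase, with 105, 545 and 308 (4.95-fold and 3.48-fold, distance 0.02), MSMB with 33.4, 181 and 102 (distance 0.10), and NOTCH3, a receptor of the Notch family, with 41.6, 229 and 117 (distance 0.13).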

How the data were processed

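RNA of HepG2 cells, 1 sample per condition, was hybridized to 3 one-color Agilent arrays on 1 slide. The authors deposited the intensity of each spot from Agilent Feature Extraction 10.7.3.1, background-subtracted and detrended within the array, and a series table whose values were equal to it for all 44495 spots of each array. Scaling between arrays is not given in the sources used here.

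From the deposited intensity, log2 values were averaged over the spots of a probe without outlier spots, centered per array on the 75th percentile over all probes, and read for the brightest probe of a gene. A dimmer signal was raised to the lowest one well above background. A gene was called past 2-fold with no test. The spot SD came from the 50 repeated probes nearest in signal. Named were all members, pathway genes past 2-fold and measured on both arrays, IGF1, IGF2R, INSR, IRS1, IRS2, CDKN1A, MDM2 and the 3 nearest genes of IGFBP2 and IGFBP1. The other genes named were chosen after their values were seen. Members and lists were chosen with earlier results of these data known. All 10 members and 77 pathway genes had a named probe, and current symbols came from RefSeq. One leukocyte marker of the planned list is not reported here. The steps were tested on simulated data. Alternatives were other scalings, normexp, other filters, spots, probes, tables and thresholds. Python 3.11.15, numpy 2.4.6, pandas 2.3.3, R 4.3.3 and limma 3.58.1 were used.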

Additional observations from a re-analysis of the deposited data

How the results depend on the processing

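No paired analysis was possible because there was just 1 array for every condition. Over the alternatives tried, no fold change past 2-fold of a family or pathway gene changed sign. Of the family, 3 genes rose past 2-fold at the low dose, and 5 did so with no filter on dim probes, where none fell. At a 1.5-fold threshold 5 rose and 1 fell, and the genes added were not the same as without the filter. At a 3-fold threshold 2 rose. At the high dose the 4 rising genes became 3 with no, median or spike-in scaling, where IGFBP7 was lost. They were also 3 at 3-fold and when a gene's probe had to pass the background call on each array. Without the filter or at 1.5-fold they became 5. With normexp, which both corrects for background in another way and adds an offset, they became 2, and the calls lost were IGFBP2 and IGFALS. Between the doses, the 1 gene higher in low-dose cells became 0 with normexp, with the percentile over all spots and at 3-fold. The 1 lower gene became 0 with no, median, quantile or spike-in scaling, with normexp, at 3-fold and when probes had to be well above background on every array. The family median at the low dose, 0.77, was 0.68 with normexp, 0.92 without the filter and 0.69 with the median over probes. At the high dose, 0.95, it was 0.70 without scaling, 0.66 with median scaling, 0.78 with spike-in scaling, and 0.77 both with normexp and with that stricter filter. For low over high, 0.07, it was 0.39 without scaling, 0.34 with median scaling, 0.30 with spike-in scaling, 0.15 with normexp, 0.00 with either the percentile over all spots or the median over probes, and -0.12 without the filter.

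In the pathway lists together, the 2 genes rising at the low dose became 1 with quantile normalization or normexp. The 2 falling became 1 without scaling and 3 without the filter. The 2 rising at the high dose became 0 with no, median or spike-in scaling and with normexp, and 5 without the filter. The 4 falling at that dose became 6 with no or median scaling, and 5 with spike-in scaling or without the filter. They became 3 with quantile normalization or when the percentile was taken over other spots or probes. Between the doses the 1 higher gene became 3 without scaling and 2 with median or spike-in scaling, and the 2 lower genes became 1 with no, median or spike-in scaling, normexp or the median over probes, and 5 without the filter. The pathway median without the filter was 0.00, 0.20 and -0.17 in the 3 comparisons. At the high dose it was -0.17 without scaling, -0.21 with median scaling and -0.12 with spike-in scaling, and for low over high 0.26, 0.22 and 0.18 in the same order.

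Where no cause is named it was not tested. With 1 array per condition, the spread between cultures is unknown, and for genes near background, IGFBP2 in control cells, IGFALS, IGFBP3 and IGFBP5, the signal limits what can be measured.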
